A study of Mus musculus with 13 samples.

Results

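The CDR3 alpha loop is the part of the T cell receptor alpha chain that is made anew in each developing T cell, where a variable (V) segment is joined to a joining (J) segment. Bases are trimmed from both segment ends, and template-free bases can be inserted between them by terminal deoxynucleotidyl transferase, so the length of the loop is set by how much germline V and J sequence is left and how many bases are added. CDR3 alpha lies over the peptide held by the major histocompatibility complex, and a short loop has few residues beyond those that the V and J segments encode.

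Short loops are defined here as functional alpha rearrangements (a CDR3 in frame, without a stop codon, with a TRAV and a TRAJ segment) whose deposited CDR3 has 11 residues or fewer. In most of them the CDR3 runs from the conserved cysteine to a phenylalanine, tryptophan or leucine. Short loops made up 4287 of 78425 functional clonotypes (5.47%) in 13 samples, and they were compared with the 69607 clonotypes of 12 to 15 residues. A clonotype is 1 row of a sample's table, that is, 1 CDR3 nucleotide sequence with its count. The length rule used no count, segment or time point.

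The samples were regulatory T (Treg) cells sorted from pooled spleen and lymph nodes of male Foxp3LSL/y Cd4creERT2 mice on a C57BL/6 background. In these mice a loxP-flanked Thy1.1-STOP cassette silences Foxp3, the transcription factor that Treg cells need, and the Cd4-driven creERT2 recombinase removes it after a single dose of 4-hydroxytamoxifen (4-OHT), given here when the mice were 14 days old, so that rescued cells become GFP+ Thy1.1-. All samples carried these alleles and received 4-OHT, and the groups differed in the time since then: 1.5 months (n = 2, age 8 weeks), 3 months (n = 4, age 3.5 months), 5 months (n = 2, age 5.5 months) and 7 months (n = 5, age 7.5 months). The excision can take place in any cell in which Cd4 drives the recombinase. No Treg sample from untreated mice, or from mice that never lacked Foxp3, enters these comparisons. Nothing in the labels says whether a sample is 1 mouse or a pool, so the p-values below measure the spread between these samples.

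Each sample held 509818 to 936831 counts in all, 476957 to 882128 of them in functional clonotypes, and 4820 to 7990 functional clonotypes. Short clonotypes numbered 263 to 455 per sample. The alpha chains that mark 2 other kinds of T cell were rare at any length. TRAV11 with TRAJ18, the pair of invariant NKT cells, occurred in 29 of 78425 functional clonotypes. TRAV1 with TRAJ33, the pair of MAIT cells, occurred in 7. Among the 4287 short clonotypes the NKT pair numbered 0, which allows a share of up to 0.0700%, and the MAIT pair 2. The short class is set by length, so its counts cannot gauge such cells in a sample. The tables hold alpha chains only, so Foxp3 itself could not be checked. Any pair of samples shared a median of 0.916% of their short clonotypes (as a share of the union of both, with V, J and nucleotide sequence identical, over 78 pairs), against 1.59% of all functional clonotypes. The highest value, 4.35% or 29 clonotypes, was that of 3 months replicate 4 with 5 months replicate 1, followed by 3.56% or 27 clonotypes for 1.5 months replicate 1 with 3 months replicate 4. Of the short clonotypes of a sample, 0.375% to 6.44% were also present in some other library at 100 times their share or more, and without them the shares and clone sizes stayed on the same side of the tests' threshold.

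A feature of the tables touches the short class more than longer ones. Many clonotypes differed by 1 base, with G in place of T, from a more abundant clonotype of the same sample with the same J gene, at under 0.5 times its count. Such T-to-G satellites made up 15.2% ± 2.44 (SD, n = 13) of short clonotypes per sample, against 8.89% ± 1.16 of those of 12 to 15 residues, and the ranges (11.8% to 19.8% and 7.32% to 11.2%) did not overlap. They sat at fixed places. With bases counted back from the last base of the CDR3, 184 short satellites lay at T11G of TRAJ21, 115 at T12G of TRAJ13 and 68 at T23G of TRAJ31, in each case in 13 of 13 samples, and at a median of 0.0867, 0.178 and 0.25 times the count of the larger clonotype. Over all lengths, the same place in TRAJ21 held 1509 satellites, that in TRAJ13 1351, and T10G of TRAJ15 1576. The germline of TRAJ21, TRAJ13 and TRAJ15 has T at these places, while that of TRAJ31 has A at base 23 from the end. That place is not particular to TRAJ31: base 23 from the end held 255 short satellites over 30 J genes, the most of any place. These ratios lie above the limit of 0.05 per mismatch that the study's methods give for the correction. In all, 661 of the 4287 short clonotypes were satellites, 209 of 515 with TRAJ21 and 126 of 281 with TRAJ13. Their cause was not tested. They are kept in the main values, as deposited, and the results were also computed without them.

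The loops themselves are best seen in their sequences. Shown here are the 6 short CDR3 amino-acid sequences found in the most samples. With 6 tied at 11 samples, the 3 of these with the highest mean share of counts were taken. They join a V end cut back to its first codons to a J segment of little germline length. They are the most widespread loops and do not stand for the class, in which 75.7% of distinct sequences occurred in 1 sample. Each line gives the combination of V gene, J gene and bases with the most counts over all samples, 5′ to 3′, with any inserted base in capitals. None of these has one, whereas joins without an inserted base made up 42.5% of short clonotypes on average. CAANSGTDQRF was mostly a T-to-G satellite, as given below.
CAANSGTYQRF (TRAV4-2, TRAJ13): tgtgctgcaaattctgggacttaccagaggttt
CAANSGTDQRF (TRAV4-2, TRAJ13): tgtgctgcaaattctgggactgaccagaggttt
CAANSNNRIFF (TRAV14-2, TRAJ31): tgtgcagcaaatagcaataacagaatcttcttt
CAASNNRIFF (TRAV7-4, TRAJ31): tgtgcagctagcaataacagaatcttcttt
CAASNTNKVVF (TRAV4-4-DV10, TRAJ34): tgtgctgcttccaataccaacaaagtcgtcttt
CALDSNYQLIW (TRAV12-1, TRAJ33): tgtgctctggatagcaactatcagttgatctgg

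The J segments behind these loops are among the shortest of the locus. The germline bases from the start of the J gene to the last base of the CDR3 are shown for the 5 J genes most used among short clonotypes, with TRAJ15 as one of ordinary length. Positions are on chromosome 14, plus strand, of GRCm38, in the T cell receptor alpha locus, and are those of the whole J gene in the GENCODE annotation, each a single coding segment.
TRAJ31 (chr14:54187895-54187951): ggaatagcaataacagaatcttcttt
TRAJ21 (chr14:54198790-54198846): tgtctaattacaacgtgctttacttc
TRAJ43 (chr14:54174742-54174798): gcaataacaacaatgccccacgattt
TRAJ33 (chr14:54185358-54185414): tggatagcaactatcagttgatctgg
TRAJ13 (chr14:54205741-54205797): caaattctgggacttaccagaggttt
TRAJ15 (chr14:54204422-54204481): cctaccagggaggcagagctctgatattt

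The first 5 of these reach the CDR3 end after 26 bases and TRAJ15 after 29. Read beside the shared loops above, the whole of TRAJ13 from its first base stands in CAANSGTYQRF, and the last 24 bases of TRAJ31 stand in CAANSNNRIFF.

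Length was counted first. Of the 4287 short clonotypes, 3067 had 11 residues, 1012 had 10, 124 had 9, 55 had 8, 20 had 7, 8 had 6 and 1 had 4. Just outside the limit, 12 residues were found in 11263 clonotypes. Per sample, 11 residues made up 3.90% ± 0.333 and 10 residues 1.29% ± 0.185 of functional clonotypes (SD, n = 13), against 14.4% ± 0.724 for 12 residues. Most short loops had ordinary ends: 3846 ended in phenylalanine, 296 in tryptophan and 125 in leucine, while 20 ended otherwise and 110 did not begin with cysteine.

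**Figure D1:**
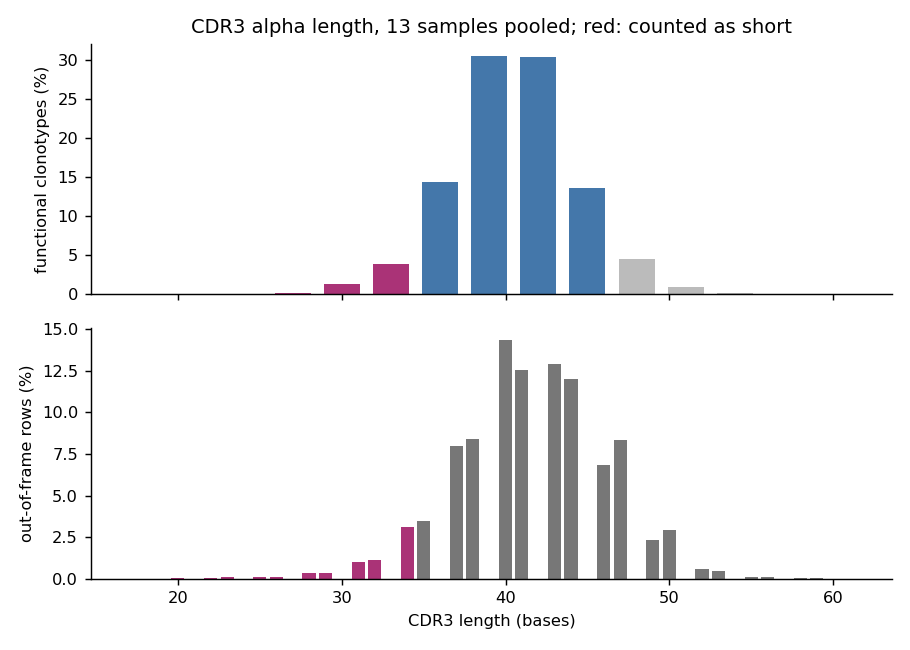
Share of functional clonotypes (upper panel) and of out-of-frame rows (lower panel) by CDR3 length in bases, all 13 samples pooled. Red bars are counted as short (functional up to 11 residues, 33 bases, and out-of-frame up to 34 bases), blue bars are 12 to 15 residues, grey bars are all longer ones, and the functional bars of 11 residues reach 3.91%.

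The design asks whether short loops become rarer or more common as the rescued cells age in the mouse. Their share of clonotypes was 5.21% and 6.06% in the 2 samples at 1.5 months. At 3 months it was 6.41%, 5.29%, 4.63% and 5.56%, and at 5 months 6.05% and 5.54%. At 7 months it ran from 5.20% to 5.26%, with a median of 5.24%. The 5 samples at 7 months lay close together, inside the range of those at 1.5 and 3 months, in this measure but not in the share of counts.

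The share of counts, which weights each clonotype by its size, was 4.13% and 5.03% at 1.5 months. It was 5.29%, 4.41%, 4.06% and 5.13% at 3 months, and 4.90% and 4.16% at 5 months. At 7 months it ran from 3.37% to 5.41% with a median of 4.48%. In the share of counts all groups overlapped. In the share of clonotypes each later group overlapped that at 1.5 months, while both samples at 5 months (5.54% and 6.05%) lay above all 5 at 7 months, a difference that was not tested.

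No change with time was detectable. The share of clonotypes differed from that at 1.5 months (5.63% ± 0.601, SD, n = 2) by -0.157 percentage points at 3 months, 0.165 at 5 months and -0.397 at 7 months, with a pooled SD of 0.485 (p = 0.977, 0.983 and 0.630 in a two-sided exact permutation test over 540540 arrangements, adjusted for the 3 comparisons by the largest statistic). For the share of counts the differences were 0.140, -0.0485 and -0.102 percentage points (exact permutation p = 0.987, 1.000 and 0.994). Pearson's r with months was -0.288 for the share of clonotypes (permutation p = 0.337, 0.649 after Benjamini-Hochberg adjustment over 3 trends) and -0.140 for the share of counts (p = 0.649, adjusted 0.649), and Spearman's rho was -0.325 and -0.0374 (p = 0.274 and 0.906, adjusted 0.818 and 0.906), over 13 samples. Without the 2 samples at 1.5 months, which lie farthest from the median month, r was -0.259 and -0.187. With 2 samples in the reference group, these tests cannot show that the share is constant.

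**Figure D2:**
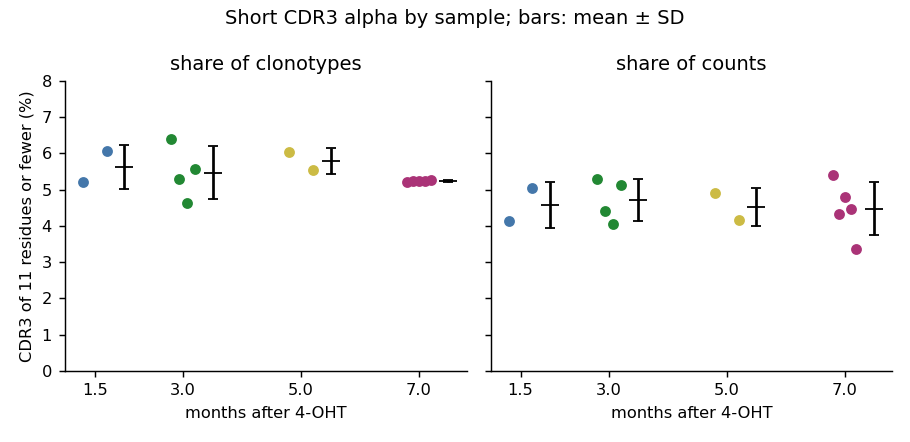
Percentage of functional clonotypes (left) and of functional counts (right) with a CDR3 of 11 residues or fewer, by months after 4-OHT; each point is 1 sample and the black bars give mean ± SD of the group. The 5 samples at 7 months lie between 5.20% and 5.26% on the left, below both at 5 months, and between 3.37% and 5.41% on the right, where all groups overlap.

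Short clonotypes were smaller than those of 12 to 15 residues. The mean count of a short clonotype was 54.9 to 128.7 per sample, against 70.7 to 156.4 for 12 to 15 residues, and the ratio of the means was below 1 in 12 of 13 samples (lowest 0.636, median 0.822, highest 1.03, at 7 months replicate 1). On the log2 scale the ratio of means was -0.28 ± 0.17 (SD, n = 13; two-sided exact sign-flip permutation test over samples, p = 0.000488). The mean of the log2 counts was lower for short clonotypes in 13 of 13 samples, with differences from -0.52 at 7 months replicate 2 to -0.02 at 7 months replicate 4 and an average of -0.26 ± 0.16 (exact sign-flip permutation p = 0.000244, the smallest that 13 samples can give). The share seen with a single count was 17.9% ± 6.75 for short and 16.7% ± 5.24 for 12 to 15 residues in the same samples. No test of this gap within samples is given.

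The satellites bear on this value, since their median count was 11 in the short class against 59 for the other short clonotypes. Without them the difference in mean log2 count was -0.18 ± 0.19 (exact sign-flip permutation p = 0.00317), below 0 in 12 of 13 samples, and the log2 ratio of means -0.20 ± 0.17 (p = 0.000977). By length, the difference from all clonotypes of 12 to 15 residues was -0.61 ± 0.33 (log2, SD, n = 13) for 10 residues, -0.15 ± 0.13 for 11 residues and 0.10 ± 0.09 for 12 residues. Without satellites these 3 values were -0.48, -0.10 and 0.17. Loops of 9 residues or fewer varied widely (-0.21 ± 0.68, below 0 in 8 of 13 samples), and those of 8 and 7 residues, 55 and 20 clonotypes in all, had a pooled mean log2 count of 5.11 and 5.06, above the 4.71 to 4.97 of the lengths from 12 to 15. Long loops lay below as well, with a difference of -0.19 ± 0.25 for 16 residues or more, and the mean log2 count at 11 residues (4.74 ± 0.56) was close to that at 15 (4.76 ± 0.56) and 16 residues (4.72 ± 0.62). Reweighting the clonotypes of 12 to 15 residues to the J gene use of the short ones left the difference at -0.25 ± 0.16, and reweighting them to the number of inserted bases at -0.32 ± 0.16 (exact sign-flip permutation p = 0.000244 for each). Within single J genes the difference was small beside its spread: for the 6 J genes most used in short loops it ran from -0.23 ± 0.68 (TRAJ43, below 0 in 9 of 13 samples) to -0.05 ± 0.75 (TRAJ9, 6 of 13), with no test.

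Among the 100 largest clonotypes of a sample, 1 to 8 were short, 4.15% ± 2.15 on average, which was 1.30 percentage points ± 2.10 under their share of all clonotypes. This difference was below 0 in 10 of 13 samples and only just passed the test (exact sign-flip permutation p = 0.0469). It did not pass without the satellites (-0.919 percentage points, exact p = 0.138), and leaving out any 1 of 9 samples, among them both at 1.5 months and both at 5 months, also took it past the threshold (up to p = 0.0918, exact). The difference in clone size did not change detectably with time: it was -0.26 on average at 1.5 months, -0.17 at 3 months, -0.38 at 5 months and -0.28 at 7 months (exact permutation p = 0.835, 0.768 and 0.991 against 1.5 months, pooled SD 0.16), with an r of -0.234 with months (permutation p = 0.434, adjusted 0.649; Spearman's rho -0.181, p = 0.545, adjusted 0.818; r = -0.299 without the 2 samples at 1.5 months).

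**Figure D3:**
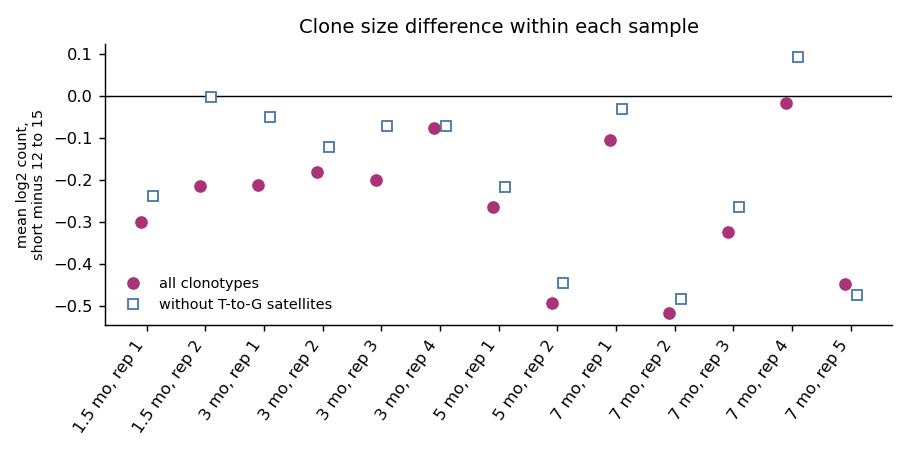
Mean log2 count of short clonotypes minus that of clonotypes of 12 to 15 residues in each sample, with all clonotypes (filled circles) and without T-to-G satellites (open squares). The filled circles lie below 0 in 13 of 13 samples, from -0.52 to -0.02, and the open squares in 12 of 13.

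Single short clonotypes were expanded all the same. Of 1230 functional clonotypes above 0.1% of a sample's functional counts, 51 were short. Among all functional clonotypes, 4287 of 78425 (5.47%) were short. The largest short clonotype of each time point is shown here for its size and for how it was put together, with inserted bases in capitals.
1.5 months, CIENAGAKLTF (TRAV21/DV12, TRAJ39): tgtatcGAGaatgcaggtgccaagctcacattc
3 months, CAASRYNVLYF (TRAV14D-3-DV8, TRAJ21): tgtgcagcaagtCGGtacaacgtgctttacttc
5 months, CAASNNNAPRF (TRAV14-2, TRAJ43): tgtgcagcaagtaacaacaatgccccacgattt
7 months, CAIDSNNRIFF (TRAV13D-2, TRAJ31): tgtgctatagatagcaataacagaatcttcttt

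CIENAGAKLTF held 846 counts in 1.5 months replicate 2, 0.145% of its functional counts (95% Wilson interval 0.136% to 0.155%). All intervals here cover counting error only, with each count taken as an independent draw, and leave out the sampling of cells. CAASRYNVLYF held 2029 counts or 0.325% (0.311% to 0.339%) in 3 months replicate 3, and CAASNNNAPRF 1415 counts or 0.260% (0.247% to 0.274%) in 5 months replicate 1. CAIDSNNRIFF was the largest short clonotype of the study, with 5392 counts or 0.929% (0.905% to 0.954%) in 7 months replicate 1. The first 2 carried 3 inserted bases each and the last 2 none. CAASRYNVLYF and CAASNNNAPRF were seen, with the same V, J and bases, in 1 sample only, while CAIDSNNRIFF was found in 6 samples, with at most 442 counts in any of the others, and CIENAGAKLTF in 2, with 1 count in the other. Over samples, the largest short clonotype took 0.0798% to 0.929% of functional counts, with a median of 0.242%.

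Rearrangements that cannot make an alpha chain were set beside the functional ones. Whether they show the length that joining produces before any receptor is tested was not tested. Out-of-frame rows were taken as short up to 34 bases, which lies between 11 and 12 codons. They made up 6.46% ± 1.15 of 684 to 1110 out-of-frame rows per sample (SD, n = 13), against 5.46% ± 0.471 of functional clonotypes. The functional share was lower in 12 of 13 samples, by 1.00 percentage point on average (SD 1.08; exact sign-flip permutation p = 0.00879), and higher by 1.62 in 7 months replicate 3. The size and the direction of this difference rest on where the out-of-frame limit is set and on rare rows. At 33 bases the out-of-frame share was 3.30% ± 0.969, below the functional share in 13 of 13 samples (difference 2.16 ± 0.978, exact sign-flip permutation p = 0.000244). With at least 2 counts per clonotype the difference at 34 bases was -0.392 ± 1.40 (exact sign-flip permutation p = 0.333), and without satellites -1.47 ± 0.976 (p = 0.000732). In-frame rows with a stop codon, 28 to 42 per sample, were short in 0 to 5 cases, too few to compare (difference 0.198 percentage points ± 4.26, exact sign-flip permutation p = 0.881).

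Short loops were made with less of each segment and fewer inserted bases, which the rule fixes in sum but not in its parts. By the authors' segment ends, a short CDR3 kept 9.66 ± 0.182 bases of V and 21.7 ± 0.207 bases of J, with 1.55 ± 0.0993 inserted bases (SD over 13 samples). CDR3s of 12 to 15 residues kept 12.3 ± 0.0384 and 26.9 ± 0.0625 bases, with 2.10 ± 0.0581 inserted. No sample of one class reached the range of the other in any of these measures. Joins without an inserted base made up 42.5% ± 1.74 of short clonotypes (38.9% to 45.2%) against 30.9% ± 1.01 (29.1% to 32.3%). V and J matches overlapped, so that the same bases could come from either segment, in 1352 short clonotypes (31.5%). Insertion did not fall steadily as loops became shorter: the mean was 1.43 bases at 11 residues, 1.81 at 10, 1.90 at 9 and 2.55 at 8, and 1.60 at 12 (all samples pooled). As a mean over samples it was 1.80 ± 0.411 at 10 residues and 1.76 ± 0.861 at 9. The only clonotype of 4 residues had 0 inserted bases. When the ends were instead set by exact match to the germline, which succeeded in 85.7% of short clonotypes and 95.7% of those of 12 to 15 residues, short CDR3s held 3.00 ± 0.316 bases between V and J against 4.51 ± 0.139 in CDR3s of 12 to 15 residues, and 26.03% ± 2.00 against 11.5% ± 0.558 had none, so the gap had the same direction with other levels.

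The short class was dominated by a few J genes. TRAJ31 made up 18.2% ± 2.01 of short clonotypes (14.2% to 21.5% over samples) and 4.99% ± 0.328 of those of 12 to 15 residues. TRAJ21 made up 11.9% ± 2.30 against 5.37% ± 0.244, and TRAJ43 6.83% ± 1.63 against 2.25% ± 0.206. For each of the 3 genes, the lowest short share of any sample was above the highest share in the 12 to 15 residue class. Without satellites the share of TRAJ21 was 8.45% ± 1.07 against 3.68% ± 0.136, and that of TRAJ13, 6.49% ± 1.85 against 4.32% ± 0.462 with them, was 4.23% ± 1.21 against 2.68% ± 0.277.

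J gene use differed between the length classes in 31 of 41 J genes tested, 75.6% (edgeR quasi-likelihood test on clonotype numbers with the sample as a factor, Benjamini-Hochberg adjusted p under 0.05), with 9 higher and 22 lower in short loops. The 6 with the largest log2 fold change upward were TRAJ31 (2.36, adjusted p = 5.00e-58), TRAJ33 (2.34, 1.39e-39), TRAJ43 (2.09, 4.17e-35), TRAJ47 (1.94, 5.75e-12), TRAJ21 (1.64, 7.33e-35) and TRAJ9 (1.54, 8.62e-24). TRAJ34, TRAJ13 and TRAJ30 were the other 3. The call of TRAJ30 (0.38) rests on the TMM scaling, since its plain share was 2.69% ± 1.46 of short clonotypes against 2.93% ± 0.211. Downward, the largest were TRAJ18 (-2.95, adjusted p = 3.11e-12), TRAJ32 (-2.59, 7.67e-11), TRAJ52 (-2.55, 9.56e-07), TRAJ53 (-2.41, 0.000377), TRAJ50 (-2.15, 4.09e-05) and TRAJ24 (-1.91, 0.000198). In the order named, these genes had only 8, 10, 6, 4, 7 and 8 short clonotypes over all samples, so the sizes of these changes rest on few clonotypes. With library totals in place of the TMM scaling the median log2 fold change over J genes moved from -0.90 to -1.40, and the calls were 8 higher and 28 lower. None of these 12 named genes changed direction or lost its call in any alternative run, the removal of satellites included.

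J length is part of the rule's arithmetic, so this difference was set beside the germline. The 9 J genes that reach the CDR3 end after 26 or 27 germline bases gave 2887 short clonotypes, 67.3% of all of them, and 12.1% of their clonotypes were short. In the 14 J genes of 28 to 30 bases 3.36% were short, in the 13 of 31 to 33 bases 1.95%, and in the 7 of 34 or 35 bases 0.563%. Across the 43 J genes with at least 100 clonotypes the short share and germline length had a Pearson's r of -0.768 and a Spearman's rho of -0.874, given as a description, since all J genes come from the same 13 libraries. Germline length did not order the J genes fully. At 26 bases the short share ran from 8.55% for TRAJ13 to 18.3% for TRAJ31, and TRAJ12, with 27 bases, had 4.54%, below TRAJ9 (11.2%) and TRAJ34 (9.83%) of the same length. Trimming differed between the classes as well, which a limit on length favours within any J gene. TRAJ31 had lost 5.98 germline bases on average in short clonotypes and 2.31 in those of 12 to 15 residues. For TRAJ13 the values were 2.37 and 0.658, and for TRAJ21 5.37 and 0.682.

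**Figure D4:**
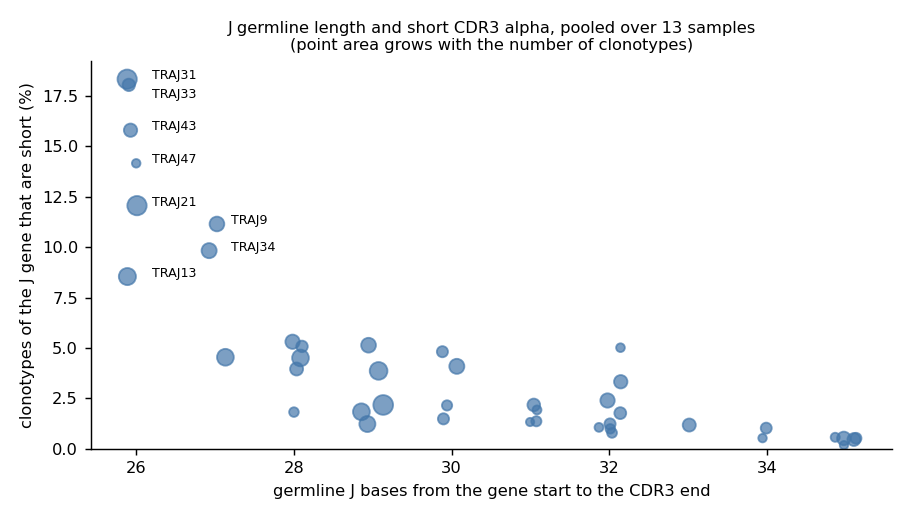
Percentage of the clonotypes of each J gene that are short against the number of germline J bases from the gene's start to the CDR3 end, for 43 J genes with at least 100 clonotypes (13 samples pooled; points are shifted slightly sideways, and their area grows with the number of clonotypes). The 8 labelled genes have 26 or 27 bases and 8.55% to 18.3% short clonotypes, and the genes of 34 or 35 bases lie at or under 1.02%.

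The V side was less uneven. TRAV14 (17.7% ± 3.31 of short clonotypes), TRAV7 (16.3% ± 1.68) and TRAV13 (14.0% ± 3.64) were the most used V families of the short class, against 15.4% ± 0.381, 19.1% ± 0.824 and 7.03% ± 0.450 of clonotypes with 12 to 15 residues. In the same test 12 of 17 V families, 70.6%, differed, 5 higher and 7 lower in short loops. TRAV13 (log2 fold change 1.10, adjusted p = 1.66e-24) and TRAV8 (1.00, 4.21e-10) were highest, followed by TRAV14 (0.31, 0.000209), TRAV5 (0.30, 0.0469) and TRAV12 (0.25, 0.00988). TRAV16 was the furthest down (-1.89, adjusted p = 2.81e-09), followed by TRAV21 (-1.29, 0.00340), TRAV17 (-1.04, 0.00988), TRAV9 (-1.01, 5.95e-09), TRAV19 (-0.84, 0.0386) and TRAV3 (-0.33, 0.0217). The call of TRAV19 was lost on leaving out any of 6 samples (both at 1.5 months, both at 5 months, 3 months replicate 2 and 7 months replicate 1), and that of TRAV5 on leaving out any of 9. By DESeq2 the split was 4 higher and 10 lower of 22 families, with TRAV12 and TRAV5 not called (adjusted p = 0.151 and 0.184). With library totals the median over V families moved from -0.26 to -0.38 and the split was 3 higher and 9 lower, with TRAV5 and TRAV12 no longer called. Without satellites TRAV12 was not called (0.14, adjusted p = 0.0581), while TRAV4 (0.17, 0.0330), TRAV7 (-0.14, 0.0319) and TRAV11 (-1.09, 0.0330) were, which gave 5 higher and 9 lower.

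Of the families with a large change, TRAV13 and TRAV8 had 10.6% and 10.2% of their clonotypes in the short class, and TRAV16 1.19%. TRAV15, with 5 of 919 clonotypes short (0.544%), did not pass edgeR's filter on low numbers and was lower in short loops by DESeq2 (log2 fold change -2.38, adjusted p = 0.000219). The germline V end from the cysteine codon is 13 bases long in TRAV13 and TRAV8 (median over the genes of the family), 17 in TRAV16 and 19 in TRAV15, but it is 13 in TRAV9 too, of which 2.67% were short. Among pairs of V family and J gene, 389 of the 783 seen in functional clonotypes occurred in the short class, led by TRAV14-TRAJ31 (129 clonotypes, 67 different amino-acid sequences, 13 samples), TRAV7-TRAJ31 (125) and TRAV14-TRAJ21 (121). Of TRAV13-TRAJ31 clonotypes, 105 of 334 or 31.4% were short.

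Segment use within the short class did not change detectably between time points. At 7 against 1.5 months no V family of 11 tested (0%) and no J gene of 15 (0%) was called by edgeR's quasi-likelihood test, with 1 of each at an unadjusted p under 0.05, and DESeq2 called 0 of 20 and 0 of 43, also with 1 of each. At 7 against 3 months the counts were again 0 of 11 and 0 of 15 (0% each), with 1 V family and 2 J genes at an unadjusted p under 0.05, and 0 by DESeq2 with the same numbers unadjusted. The smallest p-values were those of TRAV14 (log2 fold change 0.51, adjusted p = 0.133) and TRAJ30 (-1.14, 0.373) at 7 against 1.5 months, and of TRAV5 (-0.64, 0.486) and TRAJ21 (-0.38, 0.223) at 7 against 3 months. Without satellites TRAV14 stood at 0.31 and TRAJ21 at -0.12 in these comparisons. TRAV14 passed when 7 months replicate 3 or replicate 4 was left out (adjusted p = 0.0290 and 0.0403), and TRAV5 when 3 months replicate 4 was (0.0412).

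The centre of the loop, that is, all residues but the first 3 and the last 3, was compared next. This drops the germline ends but not all germline bases, since short CDR3s kept 21.7 bases of J on average. The centre of a short loop also has fewer residues, so the classes were compared over unlike stretches. Asparagine made up 23.3% ± 1.26 of the centre residues of short loops and 14.5% ± 0.209 of those of 12 to 15 residues, higher in 13 of 13 samples. Tyrosine followed with 9.11% ± 0.709 against 6.14% ± 0.0896, arginine with 7.39% ± 0.597 against 5.78% ± 0.135, and aspartate with 3.60% ± 0.401 against 2.81% ± 0.0915. Serine was lowest by difference, at 10.1% ± 0.790 against 14.7% ± 0.195, before glycine (14.9% ± 1.04 against 18.9% ± 0.174), threonine (4.70% ± 0.599 against 6.56% ± 0.0827) and alanine (5.90% ± 0.933 against 7.41% ± 0.0994), each lower in 13 of 13 samples. For these 8 residues the adjusted p was 0.000349 (exact sign-flip permutation test over 13 samples, Benjamini-Hochberg over 20 amino acids). In all, 16 of 20 amino acids differed (80.0%), 6 higher and 10 lower, and lysine, cysteine, methionine and glutamine were not called. Without satellites lysine and cysteine were called too, both higher in short loops (adjusted exact sign-flip permutation p = 0.0456 and 0.0325). Over all residues but the first and last, the differences of asparagine (3.32), tyrosine (1.88) and aspartate (0.283) were smaller but still called, and weighted by count those of arginine (2.79) and aspartate (1.22) were larger. Of the 10 residues lower in the loop centre, 4 were called higher over the wider window: phenylalanine by 1.48, isoleucine by 1.36 and proline by 0.369 percentage points (adjusted exact p = 0.000407, 0.000407 and 0.00521), and alanine, which was 0.970 percentage points higher in short loops (17.8% against 16.8%, adjusted exact p = 0.00113), and with clonotypes weighted by count alanine was not called (-1.19, adjusted exact p = 0.116).

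Much of this composition moved with the J genes. When the clonotypes of 12 to 15 residues were reweighted to the J gene use of the short ones in each sample, asparagine stood at 23.3% against 21.9%, a difference of 1.46 percentage points ± 0.866 in place of 8.81 ± 1.24 (adjusted exact sign-flip permutation p = 0.000488). Arginine, aspartate and alanine were no longer called (differences 0.0253, 0.138 and -0.144), and glycine turned to 1.77 percentage points higher in short loops (p = 0.000488 adjusted, exact). The difference of serine was then -4.93 and that of tyrosine 1.72 percentage points, both still called. Phenylalanine and tryptophan lost their call as well (adjusted exact p = 0.549 and 0.190). Of the 4 residues not called before, lysine was then 2.52 percentage points higher in short loops (8.56% against 6.03%, adjusted exact p = 0.000488), glutamine 0.588 higher (0.000888), cysteine 0.116 higher (0.0160) and methionine different by -0.778 (0.000488).

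**Figure D5:**
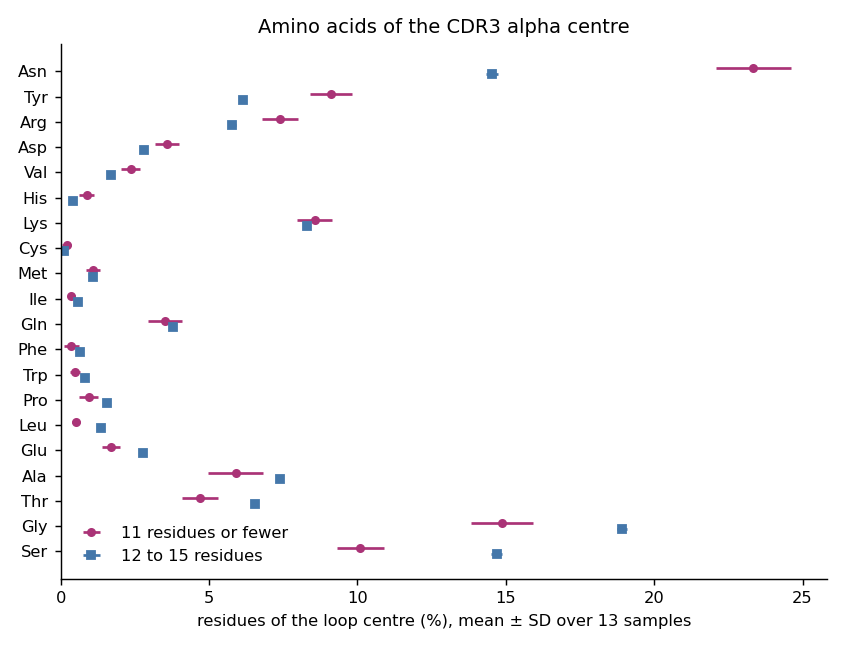
Share of each amino acid among the centre residues of short loops (red circles) and of loops of 12 to 15 residues (blue squares), mean ± SD over 13 samples, ordered by the difference. Asparagine (Asn) lies highest above the longer loops at 23.3% against 14.5%, and serine (Ser) furthest below them at 10.1% against 14.7%.

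Sharing between samples was counted for each length class. Of the distinct short amino-acid sequences of a sample, 50.3% ± 3.49 (44.7% to 56.6%) were found in at least 1 other sample, against 60.0% ± 2.92 (56.4% to 66.2%), and 30.6% ± 5.50 for loops of 16 residues or more. The difference was below 0 within 13 of 13 samples, from -15.8 to -5.00 percentage points. No test was made, because a shared sequence counts in each sample that holds it. The classes differ in size (2605 distinct short sequences against 35182) and in their satellites, and without satellites the shares were 51.2% ± 3.69 and 60.5% ± 3.05. With only clonotypes free of inserted bases the shares were 57.3% ± 4.18 and 65.5% ± 2.81, and with nucleotide identity 17.1% ± 3.27 and 25.4% ± 4.24. The means of the 4 time points ran from 49.6% to 51.0% for short loops, with no test, and the 2 samples at 5 months were the lowest and the highest of all 13 (44.7% and 56.6%). Of 2605 distinct short sequences, 1971 (75.7%) occurred in 1 sample, 42 in 7 or more and 2 in 13. A short amino-acid sequence was encoded by 1.33 different nucleotide sequences on average over the study, and one of 12 to 15 residues by 1.50.

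The most shared loops combined germline J ends with many V genes. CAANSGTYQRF was present in 13 of 13 samples at 0.000379% to 0.0810% of functional counts (median 0.0384%), through 7 nucleotide sequences that the authors' alignment placed in 15 V genes of 5 families, all with TRAJ13. Of its 23 rows, 22 had no inserted base. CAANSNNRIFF, in 12 samples, reached 0.0836% at 1.5 months replicate 1 and was not seen in 5 months replicate 2. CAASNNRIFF (11 samples, 10 residues) was highest in 5 months replicate 2, at 0.130%, as was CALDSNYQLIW (11 samples) at 0.164%, while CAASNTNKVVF (11 samples) was highest in 1.5 months replicate 2, at 0.0767%, and had 10 nucleotide sequences, the most of any short loop. Identical bases were often assigned to different V genes in different samples. Whether like 3′ ends of V genes, or separate rearrangements, account for this was not tested. Single V genes in this class were therefore taken as uncertain, and families were used. Families do not remove the uncertainty. The bases shown above for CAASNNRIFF with TRAV7-4 were assigned to TRAV14-2 in 5 months replicate 2. The values for V families in short loops carry this limit too.

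The other sequence in 13 samples, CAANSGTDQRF, differs from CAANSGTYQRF by 1 residue, Y8D, and here by 1 base, T22G, both counted from the start of the CDR3. The pair is shown in its most abundant satellite form, with the differing base in capitals.
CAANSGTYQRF: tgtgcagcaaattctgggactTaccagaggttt
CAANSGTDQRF: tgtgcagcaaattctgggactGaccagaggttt

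The aspartate form held 0.117 to 0.5 times the count of the tyrosine form in every sample (median 0.173, with the highest ratio in 7 months replicate 2, where they held 1 and 2 counts). Of its 25 rows, 23 were satellites, and without satellites it was left in 2 samples, while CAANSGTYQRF was left in 13.

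At the short end, the shortest loops seen in at least 2 samples were PSGGKLTL, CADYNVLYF and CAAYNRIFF. They are shown with inserted bases in capitals.
PSGGKLTL (8 residues, TRAV13-1, TRAJ44): CCcagtggtggaaaactcactttg
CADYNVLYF (9 residues, TRAV3-1, TRAJ21): tgcgcagattacaacgtgctttacttc
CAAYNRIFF (9 residues, TRAV7-5, TRAJ31): tgtgcagCCTataacagaatcttcttt

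PSGGKLTL lacks the cysteine that opens a CDR3 and held 325 counts in 3 months replicate 4 and 1 count in another sample. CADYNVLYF likewise held 332 counts in 5 months replicate 2 and 1 count elsewhere. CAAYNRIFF was made by 2 nucleotide sequences and held at most 178 counts, in 3 months replicate 1. Sharing of the first 2 thus rests on a single count in the second sample.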

How the data were processed

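The authors sorted rescued Treg cells, amplified T cell receptor alpha cDNA by 5′ RACE with a template-switch oligonucleotide carrying random bases, sequenced it on a MiSeq, assembled clonotypes with MiXCR and corrected rare near-copies with VDJtools (genome build GRCm38 in the submitters' processing notes). The deposited count of a clonotype is a whole number, not normalized, and whether it stands for reads or for tagged molecules is not given in the sources used here. The deposited fraction equals the count divided by the sample's total. The last V base and first J base, also deposited, gave the V, inserted and J bases. The study's methods describe the removal of non-functional rearrangements, yet out-of-frame and stop rows were present in the deposited tables, so which of the stated steps these tables passed through is unclear. Such rows were used only for comparison with functional ones.

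Depth was 509818 to 936831 counts per sample, and intervals cover counting error only, with each count taken as an independent draw. Groups came from the labels. Shares and clone sizes were compared with 1.5 months by exact permutation with the largest statistic, in place of the study's ANOVA with Dunnett's test, and between length classes by exact sign-flip over samples. Segment use was tested on numbers of clonotypes with edgeR 4.0.16 (quasi-likelihood, TMM, filterByExpr, sample as a factor between classes), with DESeq2 1.42.0 as an alternative (R 4.3.3, Python 3.11.15, scipy 1.17.1). On simulated tables with changed units, edgeR recovered 40 of 40 for V families and 40 of 40 for J genes between length classes, and 20 of 20 each for 7 against 3 months. These tables held counting error only, with no further spread between samples, and no change was placed in the least used units. For 7 against 3 months the planted changes were larger than any named there. The recovery therefore does not tell which changes could be detected in the samples. V and J names matched the GENCODE annotation of GRCm38, used for positions and germline ends.

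Named segments are up to 6 called per direction with the largest log2 fold change (or, with none called, the one with the smallest p), up to 4 amino acids per direction, the largest short clonotype per time point, the 6 most shared sequences, the 3 most used J genes and V families, and up to 3 shortest CDR3s in at least 2 samples. The members and lists were chosen with earlier results of these data known. T-to-G satellites were defined after the data were seen. Alternatives covered count minimums, length limits, reference classes, weighting, scaling, filters and leaving out each sample.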

Additional observations from a re-analysis of the deposited data

Results flagged for a closer look

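Rows that no comparison above uses also held short sequences. In-frame rows of 11 residues or fewer whose V or J segment lies outside TRAV and TRAJ numbered 10 over 7 of the 13 samples and held 74 counts in all. Per sample, 5 held 4 to 23 counts, 2 held 2, which is under the 3 counts that a count of 0 would allow, and 6 held 0. They made up 10 of 96 such rows of any length, and the most counts in a sample were 23, in 7 months replicate 3. No sample stood apart from its group by Dixon's test in the 26 groups of 4 or 5 samples examined.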

How the results depend on the processing

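Of 1207 alternative values for 74 results, 1124 kept their direction and side of the threshold (or, for counts of calls, stayed within 1.5 times). The differences from 1.5 months in both shares and in clone size passed the test in no alternative run, and the sign of several turned. Replicate numbers are shared across groups but are not said to pair samples, and J use of same-numbered samples gave correlations of -0.173 to 0.121, above 0.1 in 1 of 14 pairs. With the replicate block the share of clonotypes at 3 months was 0.0252 and the share of counts at 7 months 0.296 percentage points above 1.5 months, and the block changed no call. With loops of 10 residues or fewer, the share of counts differed by -0.204 (3 months) and 0.0193 (5 months) and clone size by -0.0732 (3 months). Clone size at 7 months differed by 0.0999 with at least 2 counts and by 0.00875 without clonotypes far more abundant elsewhere. Leaving out 1 sample gave -0.582 to 0.268, -0.260 to 0.590 and -0.822 to 0.0275 for the share of clonotypes at 3, 5 and 7 months, and -0.314 to 0.593, -0.502 to 0.405 and -0.556 to 0.352 for the share of counts. For clone size it gave 0.0467 to 0.132, -0.237 to -0.00747 and -0.0914 to 0.0336 at 3, 5 and 7 months. All extremes for both shares came from leaving out a sample at 1.5 months, which leaves 1 sample there that is taken to vary like the other groups.

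The smaller size of short clonotypes passed in every alternative run. The deficit among the 100 largest did not pass with at least 2 counts (-1.25), at least 10 counts (-1.14), C to F, W or L ends (-1.42) or without satellites (-0.919), and ran from -1.61 to -1.06 on leaving out 1 sample. The functional minus out-of-frame share was 2.16 at 33 bases, 0.198 against stop rows, and -0.392 and -0.0718 with at least 2 and 10 counts. Exact germline matching gave 19.8 J bases, 3.00 bases between and 26.03% with none in short CDR3s, against 11.5 V bases, 24.6, 4.51 and 11.5% in those of 12 to 15 residues. Over all residues but the first and last, 10 amino acids were higher in short loops, and alanine (0.970), phenylalanine (1.48), isoleucine (1.36) and proline (0.369) turned. Glycine turned to 1.77 with J weighting. V families higher in short loops numbered 3 with library totals, and single V genes 14 higher and 16 lower. Leaving out 1 sample gave 0 to 1 V families higher at 7 against 1.5 months and 0 to 1 lower at 7 against 3 months. The call of TRAV5 was lost in 13 alternatives, DESeq2 and library totals among them, and that of TRAV19 on leaving out any of 6 samples. Where a value changed, the cause was not tested. The classes of 9 residues or fewer are small, with 7 to 27 clonotypes per sample.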
